A study of Mus musculus with 6 samples.

Results

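The epicardial and mesothelial gene set comprises 10 genes: the transcription factors *Wt1*, *Tbx18* and *Tcf21*, the retinoic acid enzyme *Aldh1a2*, the surface genes *Upk3b*, *Upk1b* and *Msln*, and the simple epithelial keratins *Krt8*, *Krt18* and *Krt19*. They were chosen by name as known markers of the epicardium and of mesothelia, with earlier results of these data known. All 10 were found among the 13809 genes measured. RNA-seq was performed on hearts at E18.5, called ventricular tissue in the study's text, from WT and homozygous *Pkm1*-KO mouse embryos, with 3 biological replicates per genotype. In the KO, CRISPR/Cas9 editing of BDF1 zygotes deleted part of the *Pkm* exon that is particular to PKM1, the pyruvate kinase isoform of muscle, heart and brain. The deletion is in the germline, so every cell type carries it, the epicardium as well as the cardiomyocytes. The RNA was from whole tissue, in which fewer cells of a type and less RNA per cell cannot be told apart.

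The epicardium is the mesothelial sheet that covers the heart. Its cells form a simple epithelium with keratin filaments, express *Wt1*, *Tbx18* and *Tcf21*, and make retinoic acid. During development some of them lose their epithelial character and enter the heart wall, where they give rise to fibroblasts and to the mural cells of coronary vessels, and the sheet secretes growth signals for the myocardium. Pleura, pericardium and peritoneum are mesothelia too and express many of the same genes.

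Library totals ranged from 15567624 to 19875546 counts, so that 3 counts corresponded to 0.153 to 0.197 CPM, the read count relative to the library total as scaled by the trimmed mean of M values. *Pkm* averaged 1318 ± 41.1 CPM in WT and 542 ± 10.1 CPM in KO (SD, n = 3 each). *Xist* averaged 5.26 CPM in WT and 2285 CPM in KO, and *Ddx3y* 93.5 CPM in WT against no count in any KO library, so genotype and embryo sex cannot be told apart in any result. WT library c stood farther from the other WT libraries, with a mean chi-square per gene of 3.24 and 3.76, than those stood from each other, with 1.55; KO pairs had 1.62 to 1.88. The columns carry no replicate numbers, and the libraries are named a, b and c in column order.

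The promoters of 3 members are shown here. *Upk3b* was called higher in KO, and *Aldh1a2* and *Tbx18* are the members with a CCAAT match, the pentamer bound by the factor NF-Y that the study is about. Each run is the 250 bases before the RefSeq start on GRCm38.p6, 5′ to 3′ on the strand of the gene, with a CCAAT match on either strand in capitals.
*Upk3b*, chr5:136038246-136038495, plus strand: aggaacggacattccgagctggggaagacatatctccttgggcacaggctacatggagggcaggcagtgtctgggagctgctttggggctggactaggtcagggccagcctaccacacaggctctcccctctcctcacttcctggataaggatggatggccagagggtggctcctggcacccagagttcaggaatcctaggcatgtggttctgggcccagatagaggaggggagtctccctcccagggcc
*Aldh1a2*, chr9:71215539-71215788, plus strand: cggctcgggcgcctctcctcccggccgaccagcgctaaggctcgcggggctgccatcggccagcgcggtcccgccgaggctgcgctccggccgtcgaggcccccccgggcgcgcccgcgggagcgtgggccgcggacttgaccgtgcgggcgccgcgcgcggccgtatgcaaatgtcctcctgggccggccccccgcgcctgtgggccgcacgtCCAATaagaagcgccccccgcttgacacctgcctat
*Tbx18*, chr9:87731261-87731510, minus strand: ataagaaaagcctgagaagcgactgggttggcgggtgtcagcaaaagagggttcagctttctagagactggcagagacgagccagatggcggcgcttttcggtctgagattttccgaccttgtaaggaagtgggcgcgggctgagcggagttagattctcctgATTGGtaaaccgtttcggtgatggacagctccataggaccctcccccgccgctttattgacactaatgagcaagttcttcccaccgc

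The *Aldh1a2* match lies 36 to 32 bases before the start, and the *Tbx18* match lies 87 to 83 bases before it on the opposite strand. Promoters were matched for 6 of the 10 members, and no CCAAT was found in those of *Upk3b*, *Krt8*, *Krt18* and *Tcf21*. Of all 32851 promoters of the same length, 33.8% hold CCAAT and 32.7% hold the GC box GGGCGG on either strand; the 6 members' promoters hold no GC box. The *Aldh1a2* promoter has 77.6% G and C with 40 CpG, whereas that of *Upk3b* has 60.8% with 2 CpG and that of *Tbx18* 54% with 15 CpG. *Wt1*, *Krt19*, *Msln* and *Upk1b* were not matched.

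*Krt19*, *Wt1* and *Upk3b* were higher in KO hearts, by 1.51-fold, 1.26-fold and 1.20-fold in mean CPM, and no member was lower (edgeR quasi-likelihood test, Benjamini-Hochberg over 13804 genes, adjusted p under 0.05). The other 7 members did not pass the test. Over all genes tested, 14.6% were called higher, 15.7% lower and 30.3% in either direction. The fitted log2 fold changes of the 10 members, KO minus WT, were positive for 8 and negative for 2, with a median of 0.14; the median of all genes was 0.00172. The KO libraries lay wholly above the WT libraries for 3 members and wholly below for none, where 21% of all genes lay above, 21.4% below and 42.4% on either side. The summed level of the 10 members was 174.5 to 176.8 CPM in WT and 190.8 to 199.98 CPM in KO.

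**Figure D1:**
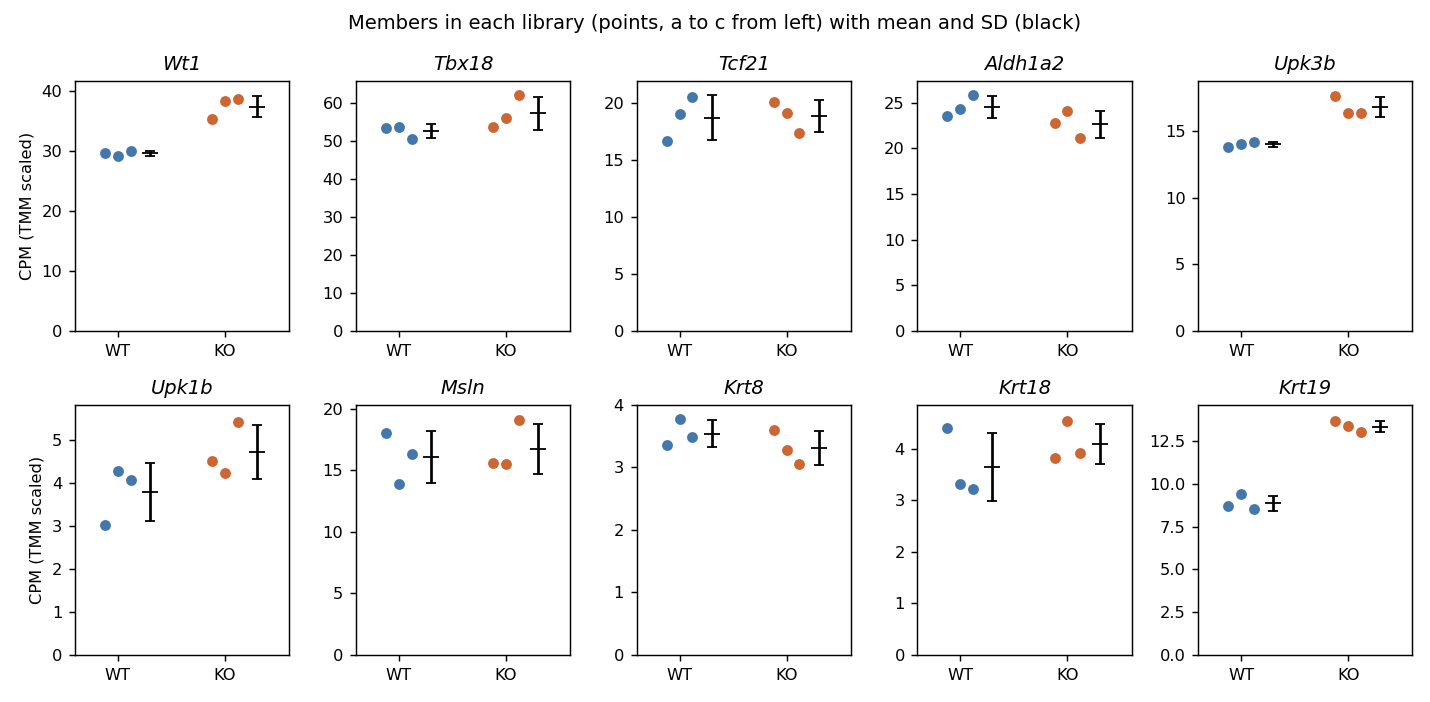
CPM of each member in the 3 WT and the 3 KO libraries (points), with the mean and SD of each genotype in black; each panel has its own linear axis from 0. The KO points sit wholly above the WT points in the panels of *Wt1*, *Upk3b* and *Krt19*.

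*Wt1* encodes a zinc finger transcription factor required for the epicardium to form and to release mesenchymal cells (chr2:105126529-105173616, plus strand; these and the other gene positions are from GENCODE M21 on GRCm38). Its level was 29.7, 29.2 and 30.0 CPM in WT libraries a, b and c and 35.4, 38.3 and 38.6 CPM in KO libraries a, b and c. All KO libraries were above all WT libraries. The means were 29.7 ± 0.395 and 37.5 ± 1.76 CPM, a log2 fold change of 0.34 (SE 0.0608, 95% interval 0.21 to 0.46, adjusted p = 1.19e-04), and the call held in each of the 14 other settings.

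*Tbx18*, a T-box factor of the epicardium and its progenitors (chr9:87702800-87731260, minus strand), was at 53.4, 53.8 and 50.6 CPM in WT and 53.7, 56.1 and 62.0 CPM in KO. KO libraries b and c were above every WT library, and KO library a was just below WT library b. The log2 fold change of 0.12 (SE 0.0559, 95% interval 0.01 to 0.24) had an unadjusted p of 0.0388 but did not pass the test after adjustment (adjusted p = 0.101). Exons of *Tbx18* overlap *D030062O11Rik*, annotated on the opposite strand, over 970 bases, and whether counting used strand is not given in the sources used here.

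*Tcf21*, a basic helix-loop-helix factor of epicardial cells and of the fibroblasts they form (chr10:22817281-22820174, minus strand), was at 16.6, 19.0 and 20.5 CPM in WT and 20.03, 19.1 and 17.3 CPM in KO. The genotypes overlapped. The log2 fold change was 0.01 (95% interval -0.16 to 0.19, adjusted p = 0.929), so these libraries leave room for a change as large as the limits of that interval in either direction.

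*Aldh1a2* encodes the retinaldehyde dehydrogenase that makes retinoic acid in the epicardium (chr9:71215789-71296243, plus strand). Its level was 23.5, 24.3 and 25.8 CPM in WT and 22.7, 24.1 and 21.1 CPM in KO. KO library b lay within the WT range and the other two KO libraries below it. The log2 fold change of -0.12 (95% interval -0.27 to 0.03, adjusted p = 0.228) did not pass the test.

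*Upk3b*, a uroplakin of bladder lining and mesothelium (chr5:136038496-136046487, plus strand), was at 13.8, 14.0 and 14.2 CPM in WT and 17.6, 16.4 and 16.3 CPM in KO. All KO libraries were above all WT libraries, and WT libraries spread over less than 1 CPM. The means were 14.0 ± 0.204 and 16.8 ± 0.756 CPM, a log2 fold change of 0.26 (SE 0.083, 95% interval 0.09 to 0.43, adjusted p = 0.0171). The call was lost with DESeq2 (adjusted p = 0.0668), without WT library b (0.0506) and without KO library a (0.0898), and held in the other 11 of 14 settings.

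*Upk1b*, the tetraspanin uroplakin (chr16:38773184-38800328, minus strand), was at 3.01, 4.29 and 4.07 CPM in WT and 4.50, 4.23 and 5.42 CPM in KO. KO library b lay within the WT range. Its log2 fold change of 0.32 was about the size of that of *Wt1*, but its interval ran from -0.02 to 0.66 on 52 to 101 counts per library (adjusted p = 0.153), against 457 to 720 counts for *Wt1*.

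*Msln*, which encodes the mesothelial surface protein mesothelin (chr17:25748613-25754378, minus strand), was at 18.0, 13.9 and 16.4 CPM in WT and 15.6, 15.5 and 19.1 CPM in KO. The genotypes overlapped. The log2 fold change was 0.07 (95% interval -0.13 to 0.27, adjusted p = 0.643).

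Keratins assemble as pairs of a type II chain, here *Krt8*, with a type I chain, here *Krt18* or *Krt19*. *Krt19* (chr11:100140810-100148665, minus strand) was at 8.69, 9.39 and 8.54 CPM in WT and 13.7, 13.4 and 13.04 CPM in KO. The lowest KO library was above the highest WT library by more than the range of either genotype. The means were 8.87 ± 0.454 and 13.4 ± 0.315 CPM, a log2 fold change of 0.59 (SE 0.0965, 95% interval 0.39 to 0.78, adjusted p = 3.67e-05), and the call held in each of the 14 other settings.

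*Krt8* (chr15:101996698-102004482, minus strand) was at 3.36, 3.78 and 3.48 CPM in WT and 3.60, 3.28 and 3.06 CPM in KO, which overlapped. Its log2 fold change was -0.10 (95% interval -0.45 to 0.25, adjusted p = 0.708). *Krt18*, its neighbour on the chromosome (chr15:102028180-102032027, plus strand), was at 4.40, 3.32 and 3.22 CPM in WT and 3.82, 4.55 and 3.92 CPM in KO. These overlapped too, with a log2 fold change of 0.16 (95% interval -0.19 to 0.51, adjusted p = 0.516). *Krt8* and *Krt18* had 49 to 76 counts per library, and 29.7% of the 50-base stretches of *Krt8* transcripts also occur in other transcripts, 26.9% in the pseudogene *Krt8-ps*, so the value of *Krt8* is uncertain. For *Krt19*, *Wt1* and *Upk3b* that share was 0%.

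**Figure D2:**
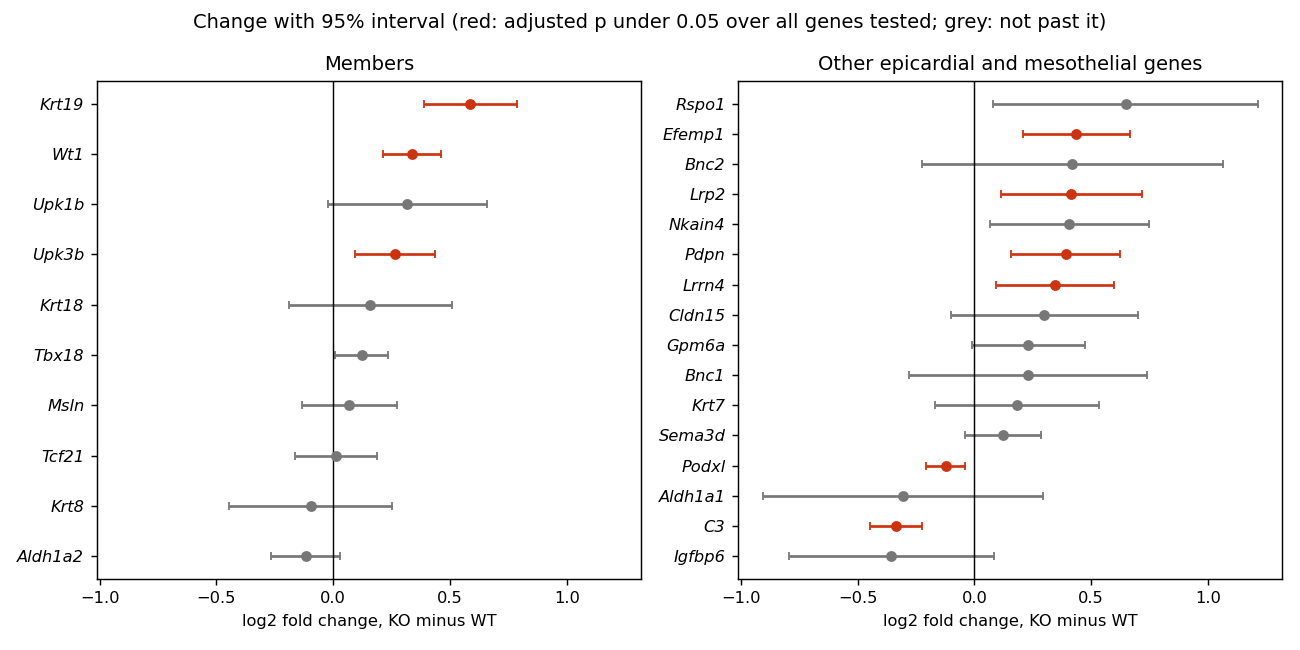
Fitted log2 fold change, KO minus WT, with its 95% interval, of each member (left) and of the 16 other epicardial and mesothelial genes measured (right). Red points passed the test at an adjusted p under 0.05, and grey points did not. Among the members, *Krt19* (0.59), *Wt1* (0.34) and *Upk3b* (0.26) are red, and the intervals of *Upk1b*, *Krt18* and *Krt8* are the widest.

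The spread among libraries differed between members. Set against the variance that counting alone would give (index of 1), the index was 5 in WT and 4.47 in KO for *Msln*, and 3.36 and 1.86 for *Tcf21*. *Tbx18* had 0.942 in WT and 6.03 in KO. For the members called higher the index was at most 1.53, so those libraries varied about as counting would, or less. A small spread itself helps a gene to pass the test. *Krt8*, which was not called, had low indices too (0.24 in WT and 0.422 in KO). With 3 libraries per genotype these indices are imprecise.

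**Figure D3:**
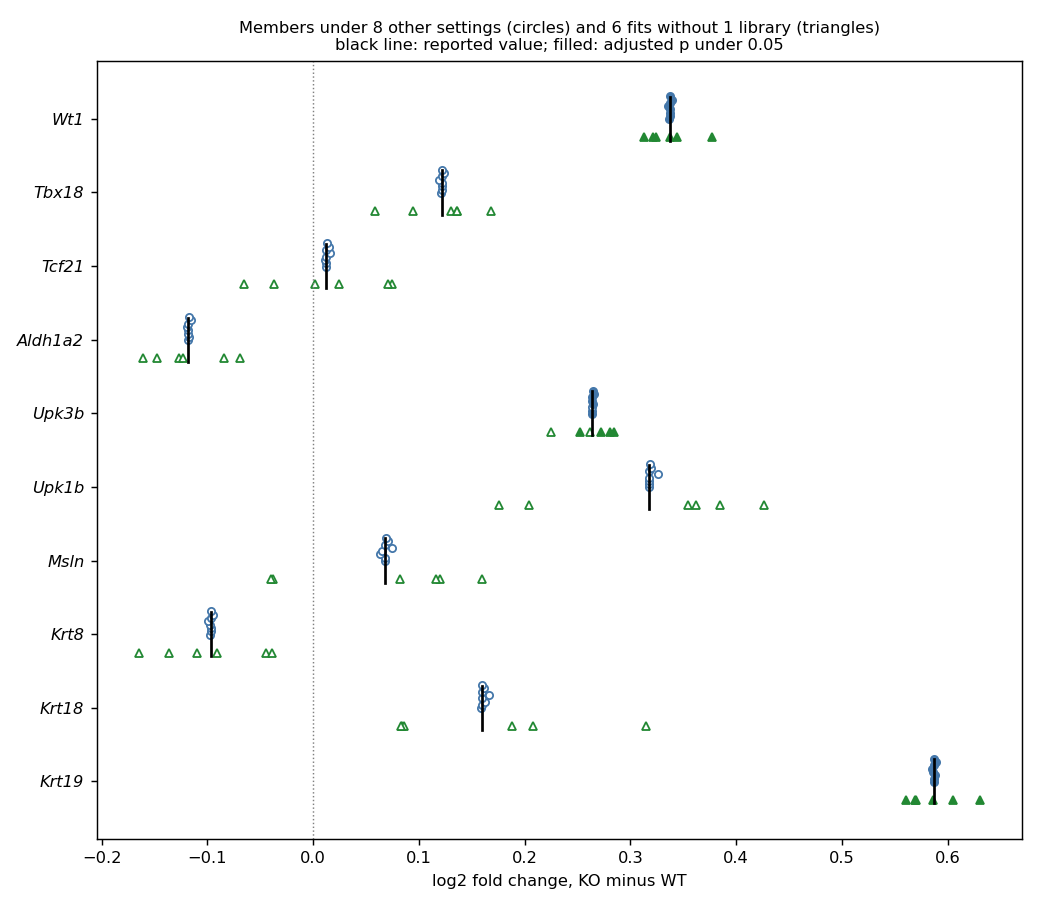
Log2 fold change of each member, KO minus WT, in 8 fits with another scaling, test or filter (circles, offset vertically) and in 6 fits that each left out 1 library (triangles), with the reported value as a black line; filled symbols have an adjusted p under 0.05. *Wt1* and *Krt19* are filled throughout, 1 circle and 2 triangles of *Upk3b* are open, and triangles of *Tcf21* and *Msln* lie on both sides of 0.

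Levels of different genes were compared per kb of annotated exon sequence. In WT, *Tbx18* (11.1 CPM per kb) and *Aldh1a2* (10.8) were highest, with library ranges that overlapped, and were followed by *Tcf21* (7.96). *Msln* (5.25), *Wt1* (4.79) and *Krt19* (4.78) came next and overlapped in that order, then *Upk3b* (3.96) and *Krt18* (2.54), and *Upk1b* and *Krt8* were lowest (1.81 each, overlapping). In KO the levels per kb ran *Tbx18* (12.1), *Aldh1a2* (9.99), *Tcf21* (8.02), *Krt19* (7.21), *Wt1* (6.05), *Msln* (5.47), *Upk3b* (4.75), *Krt18* (2.85), *Upk1b* (2.26) and *Krt8* (1.69). Of these neighbours in KO, *Wt1* and *Msln* overlapped, and *Krt19* stood above both.

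**Figure D4:**
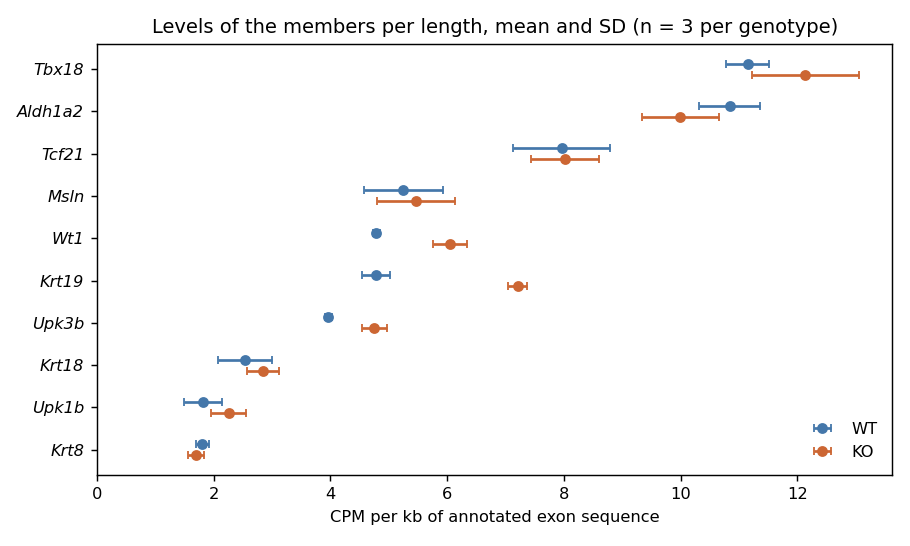
Mean level of each member per kb of exon sequence, in CPM per kb, with the SD over 3 libraries for WT and KO. *Krt19* lies at 4.78 in WT and 7.21 in KO, whereas the other keratins lie below 3 in both genotypes.

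Ratios of counts within a library do not depend on its scaling. They were computed for 6 pairs of members, chosen after the values had been seen. The ratio of *Krt19* to *Krt8* was 2.59, 2.49 and 2.45 in WT and 3.79, 4.08 and 4.26 in KO (means 2.51 ± 0.0694 and 4.04 ± 0.236), a log2 difference of 0.69. *Krt19* to *Krt18* was 1.97, 2.83 and 2.65 in WT and 3.58, 2.94 and 3.33 in KO. Thus *Krt19* counts exceeded those of both other keratins by more in every KO library than in any WT library. *Wt1* to *Tbx18* was 0.556, 0.544 and 0.594 in WT and 0.660, 0.684 and 0.623 in KO, again without overlap. Each of these 3 had p = 0.1 in a two-sided exact permutation test, the smallest that 3 against 3 libraries can give, and 0.2 after adjustment over the 6. The ratios of *Wt1* to *Tcf21*, *Upk3b* to *Msln* and *Krt8* to *Krt18* overlapped between genotypes (exact permutation p = 0.2, 0.3 and 0.3).

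**Figure D5:**
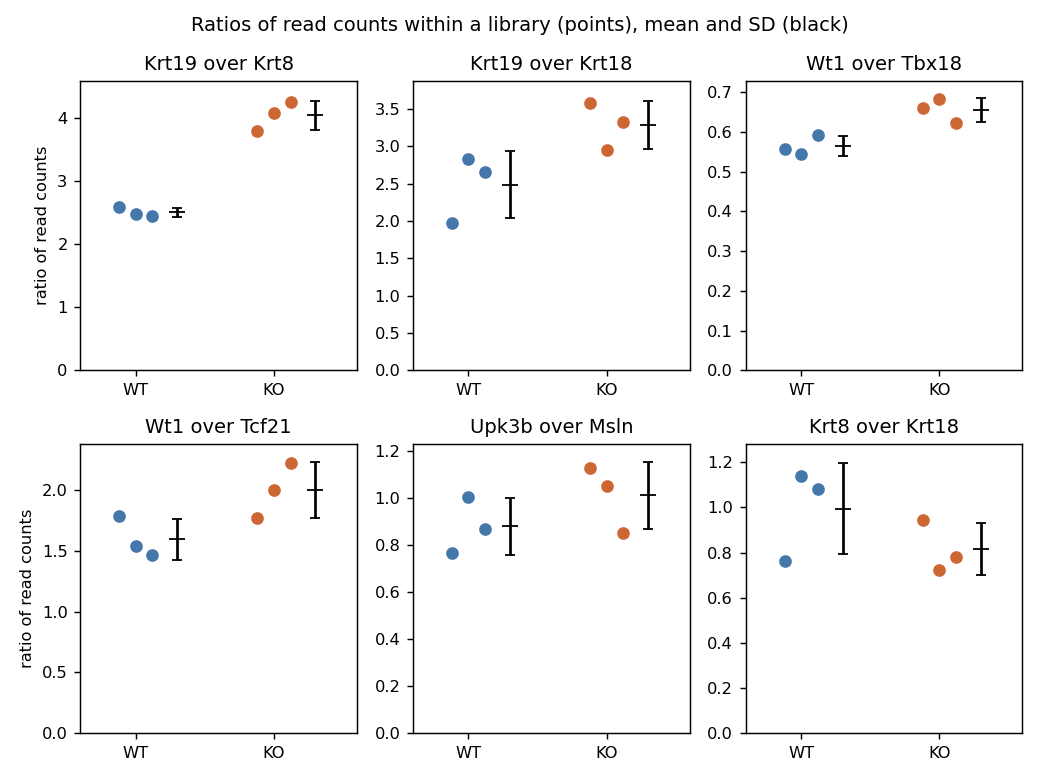
Ratio of read counts of 2 members within each library (points) for WT and KO, with mean and SD in black, for all 6 pairs computed; every axis starts at 0. The genotypes do not overlap for *Krt19* over *Krt8*, *Krt19* over *Krt18* and *Wt1* over *Tbx18*, and overlap for the other 3 pairs.

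Of 20 other epicardial and mesothelial genes, 16 were in the table, of which 4 were called higher in KO, 2 lower and 10 not, beside 14.6% higher and 15.7% lower over all genes. Their median log2 fold change was 0.26. *Efemp1*, which encodes the matrix protein fibulin-3, was at 7.41, 7.04 and 7.36 CPM in WT and 10.4, 8.90 and 10.04 CPM in KO (log2 fold change 0.44, adjusted p = 0.00389). *Lrp2*, the endocytic receptor megalin, rose from 4.66 to 6.24 CPM (0.42, 0.0321), *Pdpn*, the mucin-type glycoprotein podoplanin, from 7.47 to 9.82 CPM (0.39, 0.0105), and *Lrrn4* from 7.84 to 9.82 CPM (0.34, 0.0347), with *Lrrn4* libraries that overlapped. The genes called lower were *C3*, complement component C3, at 58.5, 57.8 and 55.6 CPM in WT and 42.8, 48.0 and 45.7 CPM in KO (-0.34, 2.67e-05), and *Podxl*, the sialomucin podocalyxin, which endothelium also makes (142 to 130 CPM, -0.12, 0.0239). The number called higher was 2 with DESeq2, 2 without WT library a, 2 without WT library b and 1 without KO library a. The number called lower was 1 with DESeq2 and 1 without WT library b, KO library b or KO library c. Among the other uroplakins, *Upk1a* alone had a row (0.805 and 1.36 CPM, adjusted p = 0.0865), and of 11 other keratins the 4 measured, *Krt7*, *Krt10*, *Krt80* and *Krt222*, did not pass the test.

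Around *Aldh1a2*, 12 of 18 listed retinoic acid pathway genes were tested, and 3 were called higher and none lower. Of all genes, 14.6% were called higher. The share of the list called in either direction was smaller than the 30.3% of all genes. *Dhrs3*, which returns retinaldehyde to retinol, was at 12.6, 12.7 and 14.3 CPM in WT and 17.3, 18.7 and 16.9 CPM in KO (log2 fold change 0.42, adjusted p = 5.48e-04). *Cyp26b1*, which degrades retinoic acid, had 0.689 and 1.42 CPM (1.00, 0.0184), on only 7 to 29 counts per library. The receptor gene *Rara* had 67.4 and 74.1 CPM (0.14, 0.0325). At an unadjusted p under 0.05, 2 genes of the list were lower. The number called higher was 1 with DESeq2, 1 without WT library a and 1 without KO library c, and 2 without any other single library. It was also 2 with at least 10 counts required in every library, a filter that removes *Cyp26b1*. In addition, 1 gene was called lower with that filter, with the edgeR exact test, without WT library a and without KO library a. The median log2 fold change of the list was 0.05.

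Of 12 genes of the epithelial to mesenchymal transition, 8 were called lower in KO and none higher (median log2 fold change -0.13), against the 15.7% of all genes called lower. The other 4, each a transcription factor gene, did not pass the test, among them *Zeb1* (-0.04). At an unadjusted p under 0.05, 1 of these 4 was higher, and its KO libraries lay wholly above the WT libraries. Of the 12 fitted changes, 2 were positive. The homeobox gene *Prrx1* fell from 39.5 to 25.9 CPM (-0.61, adjusted p = 1.65e-08), and the ligand genes *Tgfb3* (-0.50, 8.28e-06), *Tgfb2* (-0.32, 3.73e-05) and *Tgfb1* (-0.23, 0.0225) fell as well. *Cdh2* (-0.18), *Zeb2* (-0.14), *Tgfbr3* (-0.11) and *Vim* (-0.08) changed less; cardiomyocytes also express *Cdh2*, and many mesenchymal and endothelial cells *Vim* and *Zeb2*. With DESeq2, or without KO library a, 5 were called lower. Of 7 growth signals tested, *Slit2* (88.3 to 104.6 CPM, 0.24, adjusted p = 4.78e-05), *Fgf9* (9.99 to 12.9 CPM, 0.36, 0.0051) and *Cxcl12* (97.2 to 106.1 CPM, 0.13, 0.0168) rose and none fell, beside the 14.6% of all genes called higher. That count was 2 without WT library b, KO library b or KO library c, and 1 of the signals was called lower without WT library a. *Igf2*, the most abundant of them, had 2744 CPM in WT and 2649 in KO (-0.05, 0.153).

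Some markers of the cell types that the epicardium gives rise to fell. Of 9 fibroblast markers, *Mfap5* (-0.60), *Dpt* (-0.54), *Postn* (-0.32), *Lum* (-0.22), *Dcn* (-0.12) and *Col3a1* (-0.07) fell and none rose, where 15.7% of all genes were called lower. The other 3 did not pass the test, among them *Col1a1* (1080 CPM in WT and 1061 in KO, -0.03). All 9 fitted changes were negative. The summed level of the 9 was 3997 to 4043 CPM in WT and 3704 to 3777 CPM in KO. The count of 6 was 3 with DESeq2, without WT library a or without WT library b, and 4 without KO library b or KO library c. Of 9 mural cell markers, *Myh11* (-0.47), *Rgs5* (-0.27), *Abcc9* (-0.16) and *Cspg4* (-0.15) were called lower and none higher, beside the same 15.7%. The count of 4 was the same in every setting run. The other 5 did not pass the test, among them *Acta2* (0.02) and *Notch3* (-0.04), and 3 of the 9 fitted changes were positive. The summed level of the 9 was 1538 to 1565 CPM in WT and 1458 to 1473 CPM in KO. *Acta2*, with 567.5 CPM in WT and 575.9 CPM in KO, and *Abcc9*, with 494 CPM in WT and 442 CPM in KO, made up most of it. Whether the *Abcc9* RNA came from mural cells was not tested.

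Markers of tissues that could have come with the heart were examined, since keratins and mesothelial genes are also expressed there. None of 7 lung epithelium and 3 thymic epithelium markers had a row in the table, whose smallest row total was 59 counts. Of 7 markers of other epithelia only *Grhl2* had a row, at 1.22 to 2.20 CPM in WT and 2.68 to 2.97 CPM in KO (log2 fold change 0.64, adjusted p = 0.0321). Of 5 liver markers 3 had a row, and *Alb* (-1.74), *Apoa1* (-1.28) and *Afp* (-0.94) were each lower in KO, beside 15.7% of all genes called lower. The sum of the 3 was 23.0 to 28.8 CPM in WT and 9.93 to 10.7 CPM in KO. Of 6 atrial markers tested, *Myl4* (1.10), *Myl7* (0.75) and *Nppa* (0.68) were higher in KO and none lower, beside 14.6% of all genes called higher. The other 3 did not pass the test, among them *Nr2f2* (0.06), and 2 of the 6 fitted changes were negative. The sum of the 6 was 594.8 to 601.1 CPM in WT and 1006 to 1030 CPM in KO. Most of that sum was *Nppa* (372.1 CPM in WT and 596.9 in KO) and *Myl4* (142.0 and 304.8 CPM). Whether the RNA of these genes came from atrial tissue was not tested. Of 11 cardiomyocyte genes, listed as ventricular though several are shared with the atria, 6 were lower and 3 higher. Over all genes, 15.7% were called lower and 14.6% higher. The 6 lower were *Myh6* (-0.46), *Tnnt2* (-0.25), *Tnni3* (-0.24), *Myl2* (-0.18), *Myl3* (-0.10) and *Ttn* (-0.05). The 3 higher were *Mybpc3* (0.10), *Actc1* (0.06) and *Myh7* (0.05). The sum of the 11 was 136741 to 140879 CPM in WT and 131124 to 132397 CPM in KO. The part of cardiomyocyte RNA, of atrial tissue and of mesothelium from outside the heart in the values of *Krt19*, *Wt1* and *Upk3b*, and in the fibroblast and mural cell counts, was not tested.

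For the 7 members with a mean of at least 5 CPM, the 3 genes with the most similar pattern were found among 11037 others, by the root mean square difference of centred log2 CPM over the 6 libraries. For *Wt1* they were *Abcc8* (0.0157), *Pik3ip1* (0.0167) and *Erbb3* (0.0186), and for *Krt19* *Vegfa* (0.0344), *Unc13c* (0.0435) and *Plxna3* (0.0438). *Upk3b* was nearest to *Tcp11l1*, *Nup50* and *N4bp3*, *Tbx18* to *Mtg1*, *E2f4* and *Tmed8*, and *Tcf21* to *2810004N23Rik*, *Slc29a1* and *Sobp*. *Aldh1a2* was nearest to *Rpl38*, *Thoc7* and *Cox7b*, and *Msln* to *Cd320*, *Zdhhc18* and *Crh*. Members were left out of this search.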

How the data were processed

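Ribosomal RNA was depleted (KAPA RiboErase) and libraries were sequenced with paired ends by the authors. Per the submitters' processing notes, cutadapt 1.18, HISAT2 and StringTie were used with mm10; the counting program and its strand setting are not given in the sources used here. The authors deposited unnormalized counts, 1 row per gene symbol. Their own comparison, deposited beside them as log2 fold changes, mean log2 CPM, p-values and FDR, was not used here.

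Genotypes were compared with edgeR 4.0.16 (R 4.3.3): filterByExpr (13804 genes kept, 5 left out), trimmed mean of M values, and the quasi-likelihood test of genotype, with Benjamini-Hochberg adjustment over all genes and a threshold of 0.05. The steps were tested on simulated data. No pair of libraries agreed within sampling noise. The labels call the samples replicates without naming separate embryos, so p-values measure the spread between these libraries. Limits of 3 counts cover counting error only. Other settings were DESeq2 1.42.0, its size factors, limma 3.58.1 voom, the edgeR exact test, scaling without *Rn45s*, other filters, and each library left out. Ratios used scipy 1.17.1.

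The members and lists were chosen with earlier results of these data known. All members are named; of other lists, a gene could be named if past the threshold or among the 4 most abundant, and for each member above 5 CPM its 3 nearest genes.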

Additional observations from a re-analysis of the deposited data

How the results depend on the processing

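No paired analysis was possible because no replicate number is given for any count column. Among the members, the number called higher was 3, and 2 with DESeq2, without WT library b or without KO library a; none was called lower in any of the 14 other settings. *Wt1* had log2 fold changes from 0.31 to 0.38 and *Krt19* from 0.56 to 0.63 over these settings. Leaving out 1 library gave *Tcf21* log2 fold changes from -0.0654 to 0.0750 and *Msln* from -0.0395 to 0.160; neither was called in any setting. Of the other epicardial and mesothelial genes, DESeq2 called 2 higher and 1 lower, against 4 and 2, and leaving out 1 library gave 1 to 5 higher and 1 to 3 lower. The cause was not tested. Over the whole table the number called ranged from 1362 (DESeq2) to 2168 higher and from 1639 (DESeq2) to 2306 lower. Depth limits *Upk1b*, *Krt8* and *Krt18*, with at most 101 counts per library, whose 95% intervals are the widest of the 10.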
